A study of Mus musculus with 12 samples.

Results

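The genes described here carry glycerol into triglyceride, the storage fat of adipocytes. They were taken as a fixed list of 9 genes by name (Aqp7, Gk, Gpd1, Pck1, Gpam, Agpat2, Lpin1, Dgat1 and Dgat2). All 9 were among the 14159 genes in the deposited expression table, and all 9 passed the filter on low values that left 13404 genes for testing. Their abundance was measured by strand-specific mRNA sequencing of inguinal white adipose tissue (iWAT) from mice with and without ATF4, a transcription factor of the integrated stress response, in adipocytes. Atf4AKO mice carried floxed Atf4 alleles (Atf4 flox/flox) and Cre recombinase under the adiponectin promoter (Adipoq-Cre), and their floxed littermates without Cre (Atf4WT) were the controls. Every animal was on the C57BL/6 background. Each genotype was kept at room temperature (RT, 22 °C) or exposed to 5 °C for 24 h, which gave 4 groups of 3 libraries, 12 libraries in all. The age and sex of the mice were not given in the sources used here.

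Deletion was limited to cells that express adiponectin, while the libraries came from the whole depot with its vessels, immune cells and stroma. Atf4 itself, the deleted gene, lay between 4107 and 5669 normalized counts in Atf4WT at RT and between 1470 and 1639 in Atf4AKO at RT. After cold it lay between 5756 and 7644 in Atf4WT and between 788 and 1578 in Atf4AKO, so the genotypes did not overlap at either temperature. The libraries held 25719476 to 29105147 reads on the listed genes. The 5 white adipocyte markers (Adipoq, Plin1, Cidec, Fabp4 and Lep) were abundant in every library, with a mean log2 value of 15.77 to 16.45. Skeletal muscle transcripts stood out in 3 libraries (Atf4WT RT replicate 2, Atf4WT cold replicate 0 and Atf4AKO cold replicate 1), where Acta1 reached 35541, 13734 and 1314 normalized counts, against at most 789 in the others. B cell markers were high in all 3 Atf4WT libraries after cold and in Atf4WT RT replicate 2 (mean log2 value 8.43 to 10.2, against 3.10 to 5.62 in the other libraries). In such bulk tissue, fewer cells of a type and less RNA per cell cannot be told apart.

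Triglyceride is built from glycerol 3-phosphate by a fixed series of enzymes. Lipolysis releases glycerol, which leaves or enters adipocytes through aquaporin 7 (Aqp7), and glycerol kinase (Gk) can phosphorylate it back to glycerol 3-phosphate. White fat is known for little glycerol kinase, so that its glycerol 3-phosphate comes mainly from glycolysis through glycerol 3-phosphate dehydrogenase (Gpd1) or from pyruvate and lactate through cytosolic phosphoenolpyruvate carboxykinase (Pck1), the route called glyceroneogenesis. Brown fat is known for more glycerol kinase. The backbone then receives its first acyl chain from the mitochondrial acyltransferase GPAT1 (Gpam) and the next from AGPAT2 (Agpat2), the enzyme whose loss causes a congenital generalized lipodystrophy. Lipin 1 (Lpin1) removes the phosphate to give diacylglycerol, and DGAT1 and DGAT2 (Dgat1, Dgat2), which are unrelated in sequence, add the last acyl chain.

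On the mouse mm10 build, with the GENCODE annotation of that build, Gk was on chromosome X at chrX:85701937-85776819 and Gpd1 on chromosome 15 at chr15:99717515-99725005. Pck1 was at chr2:173153048-173159273, Aqp7 at chr4:41033074-41048139 and Gpam at chr19:55067268-55127238. Agpat2 was at chr2:26593057-26604417, Lpin1 at chr12:16535669-16610966, Dgat1 at chr15:76502015-76511953 and Dgat2 at chr7:99153658-99182719. Gpd1 and Pck1 lie on the plus strand and the other 7 on the minus strand. Agpat2 overlaps 2 protein-coding genes of the plus strand, Egfl7 and Gm20532, and Gk, Gpd1 and Gpam each overlap an antisense gene. The strand setting of the read counting was not given in the sources used here, so reads of these 4 genes and of their overlapping neighbours were not separated further.

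The stretches upstream of the start sites are shown because the genes moved apart under cold, and they let the sequence around each start be read beside its response. RefSeq start sites on GRCm38.p6 were found for 6 of the 9 genes, with 8 start sites in all, and 250 bases upstream of each were searched on both strands. The letters searched were TGACGTCA, the full cAMP response element (CRE), its CGTCA half-site, TGATGNAAT, a composite element of C/EBP and ATF factors, and AGGTCA, the half-site of nuclear receptors. The CGTCA half-site is contained in the full CRE. Over all 32851 promoters of the same length, 1.55% held the full CRE, 17.8% the CRE half-site, 0.816% the composite element and 14% the nuclear receptor half-site. Neither the full CRE nor the composite element was found upstream of any of the 8 start sites. Capitals mark the matches, lower case the rest, and each run reads 5′ to 3′ on the strand of the gene and ends at the base before the RefSeq start. That start can lie inside the GENCODE span given above. The Pck1 run ends at base 173153072, where the GENCODE span of Pck1 begins at 173153048. The 4 stretches shown are those of Gk and Agpat2, the genes with the highest fold changes after cold, of Pck1, which was not called, and of the second Gpam start, which held the most matches.
Gk, chrX:85776820-85777069, minus strand: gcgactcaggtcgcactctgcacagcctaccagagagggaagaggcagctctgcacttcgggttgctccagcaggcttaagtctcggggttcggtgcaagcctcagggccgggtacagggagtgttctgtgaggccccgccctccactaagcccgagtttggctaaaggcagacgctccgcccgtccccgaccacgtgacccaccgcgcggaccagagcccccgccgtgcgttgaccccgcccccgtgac
Agpat2, chr2:26604418-26604667, minus strand: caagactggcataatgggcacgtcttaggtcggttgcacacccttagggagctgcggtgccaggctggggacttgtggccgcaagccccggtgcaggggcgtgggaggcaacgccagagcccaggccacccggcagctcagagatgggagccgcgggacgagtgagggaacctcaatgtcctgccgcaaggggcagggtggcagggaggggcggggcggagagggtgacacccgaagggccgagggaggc
Pck1, chr2:173152823-173153072, plus strand: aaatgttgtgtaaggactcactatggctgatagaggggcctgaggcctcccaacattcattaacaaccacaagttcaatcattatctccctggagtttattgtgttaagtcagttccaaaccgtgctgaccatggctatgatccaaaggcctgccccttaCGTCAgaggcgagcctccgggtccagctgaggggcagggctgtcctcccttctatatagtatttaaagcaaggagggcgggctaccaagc
Gpam, second start site, chr19:55099478-55099727, minus strand: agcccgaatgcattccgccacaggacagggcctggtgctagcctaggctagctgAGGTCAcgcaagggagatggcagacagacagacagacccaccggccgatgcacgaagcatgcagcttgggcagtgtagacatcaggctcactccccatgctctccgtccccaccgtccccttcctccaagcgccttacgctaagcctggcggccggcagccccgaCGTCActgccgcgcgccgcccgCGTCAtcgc
No searched motif was found in the Gk and Agpat2 stretches. Pck1, long studied as a gene switched on by cAMP, held a CRE half-site 90 to 86 bases upstream. The second Gpam start held CRE half-sites 31 to 27 and 9 to 5 bases upstream and a nuclear receptor half-site 196 to 191 bases upstream, while its first start held none. Lpin1 held a nuclear receptor half-site 74 to 69 bases upstream. Aqp7 held TGACCT, the same half-site on the other strand, 49 to 44 bases upstream of its first start and, upstream of its second start, at 223 to 218 and 101 to 96 bases. Gene counts do not tell which start was used. Start sites of Gpd1, Dgat1 and Dgat2 were not analysed here.

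The first comparison asks how the 9 genes responded to 24 h of cold in each genotype. In Atf4WT, 5 of the 9 rose (Gk, Gpd1, Gpam, Agpat2 and Dgat1), none fell, and 4 (Aqp7, Pck1, Lpin1 and Dgat2) did not pass the test, which was limma on log2(normalized count + 1) with Benjamini-Hochberg adjustment over all tested genes and a threshold of 0.05. Over all 13404 genes, 17% were called higher and 14.9% lower in the same comparison. The median log2 fold change was 0.91 over the 9 genes and 0.003 over all tested genes. In Atf4AKO the genes called were the same 5, none fell, and the backgrounds were 14.8% higher and 11% lower. There the median log2 fold change was 0.83 over the 9 genes and −0.032 over all tested genes. The cutoff of the study for differential expression was a fold change over 1.5 with an unadjusted p under 0.05, used there with DESeq2. Here it was applied to the limma fit, and the same 5 genes passed in each genotype. The background was 21.2% of all genes in either direction in Atf4WT and 17.2% in Atf4AKO. None of the 5 white adipocyte markers was called higher in either genotype, and in each 2 had positive and 3 negative log2 fold changes. Adipoq was called lower in Atf4WT (−0.60, adjusted p = 0.0148) and not in Atf4AKO (−0.36, adjusted p = 0.119). Fabp4 was at 0.48 in Atf4WT and 0.61 in Atf4AKO (adjusted p = 0.292 and 0.2). The 5 fibroblast and progenitor markers were all negative, with medians of −1.15 in Atf4WT (1 called lower) and −0.99 in Atf4AKO (2 called lower). The 5 macrophage markers were too, with medians of −0.62 and −1.1 and none called. The 6 endothelial markers were 2 positive and 4 negative in each genotype. All 9 B cell markers were positive in Atf4WT, and 1 was in Atf4AKO. The part of these cells in the changes of the 9 genes was not tested. The thermogenic markers (Ucp1, Cidea, Cox7a1, Elovl3 and Dio2) were all called higher in both genotypes, and their mean log2 value went from 7.17 to 8.34 at RT in Atf4WT to 12.84 to 13.13 after cold.

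**Figure D1:**
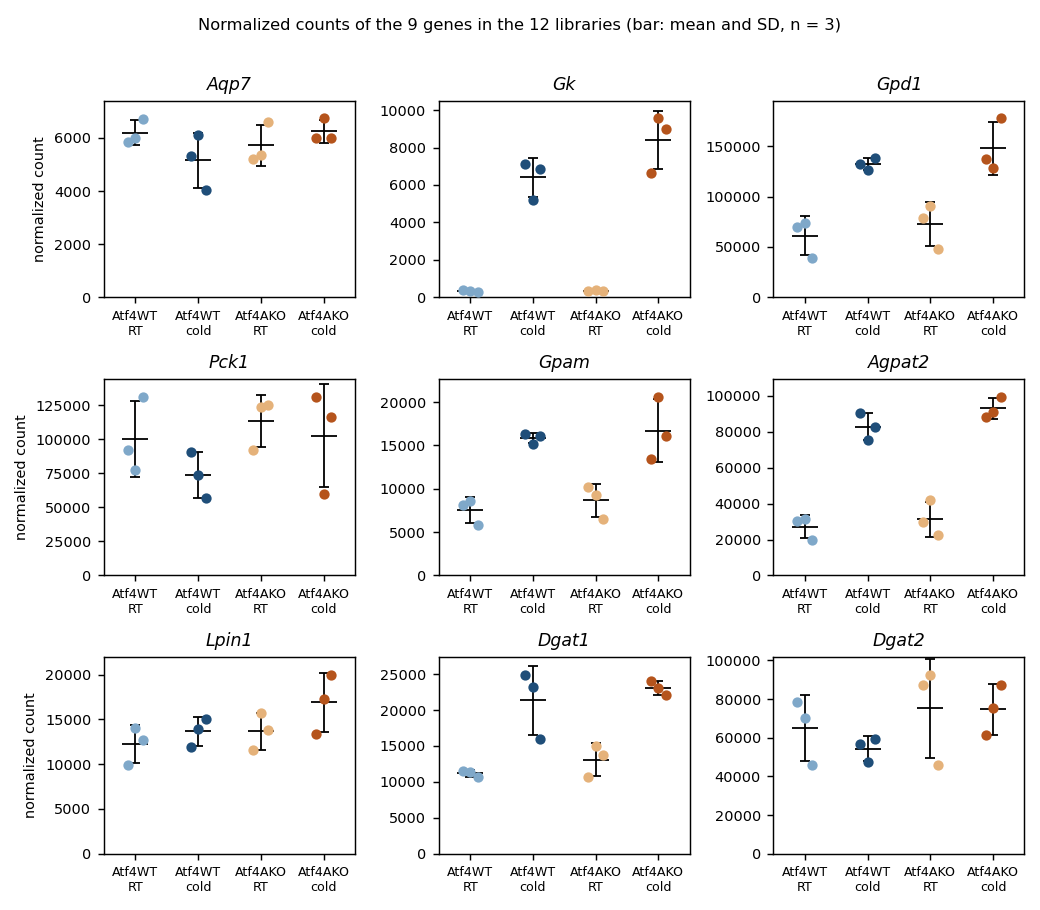
Normalized counts (vertical axes, linear and from 0, with a scale of their own in each panel) of the 9 genes in the 4 groups; points are libraries and bars the mean and SD of 3. The cold groups of Gk, Gpd1, Gpam, Agpat2 and Dgat1 lie above the RT groups without overlap in both genotypes, while those of Aqp7, Pck1, Lpin1 and Dgat2 overlap. The share of all genes without overlap was not counted.

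Aqp7, the glycerol channel, was at 5852, 5988 and 6723 normalized counts in the 3 Atf4WT libraries at RT and at 5304, 6107 and 4043 after cold. In Atf4AKO it was at 5210, 5344 and 6599 at RT and at 5996, 6733 and 6010 after cold. The groups overlapped in both genotypes, though all 3 cold libraries of Atf4WT were below the Atf4WT RT mean (6187) and all 3 of Atf4AKO were above the Atf4AKO RT mean (5718). The log2 fold change was −0.28 ± 0.14 (SE) in Atf4WT and 0.13 ± 0.14 in Atf4AKO, with adjusted p of 0.154 and 0.519. With the libraries scaled to the white adipocyte markers, the Atf4WT value was 0.015. That scaling moved the median of all genes in this contrast from 0.003 to 0.3. Under the other 24 of the 25 alternatives the Aqp7 value stayed negative, and it was called under none. The order of the 4 group means ran from Atf4WT cold (5151 ± 1041, SD) through Atf4AKO RT (5718 ± 766) and Atf4WT RT (6187 ± 469) to Atf4AKO cold (6246 ± 422), and no neighbours in it differed beyond their spread.

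Gk had the highest response of the 9. It was at 375, 334 and 269.8 normalized counts in Atf4WT at RT and at 7143, 5204 and 6851 after cold. In Atf4AKO it was at 349.5, 389 and 316 at RT and at 6645, 9555 and 9001 after cold. Every cold library was more than 10 times above every RT library, and the genotypes overlapped at both temperatures. The fitted fold change was 19.6-fold in Atf4WT (log2 4.29 ± 0.17, SE, adjusted p = 5e-07) and 23.6-fold in Atf4AKO (log2 4.56 ± 0.17, adjusted p = 2.54e-07). In both genotypes Gk had the smallest p of all 13404 tested genes, and by size of rise it ranked 21 in Atf4WT and 10 in Atf4AKO. The group means were 326 ± 52.9 (SD, n = 3) and 352 ± 36.5 at RT and 6399 ± 1046 and 8400.5 ± 1545 after cold, in Atf4WT and Atf4AKO respectively, so the temperatures differed beyond the spread and the genotypes did not.

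Gpd1, the cytosolic enzyme that reduces dihydroxyacetone phosphate to glycerol 3-phosphate, was at 70177, 74112 and 39113 normalized counts in Atf4WT at RT and at 131886, 126100 and 137890.0 after cold. The Atf4AKO values were 79210, 90346 and 47990.4 at RT and at 137188, 128752 and 177643 after cold. The cold groups lay above the RT groups, and replicate 2 was the lowest RT library in both genotypes. Gpd1 rose 2.24-fold in Atf4WT (log2 1.16 ± 0.29, SE, adjusted p = 0.0109) and 2.09-fold in Atf4AKO (log2 1.06 ± 0.29, adjusted p = 0.0199). These calls were the least stable of the 5. Without Atf4AKO RT replicate 2 the Atf4AKO log2 fold change was 0.79 with an adjusted p of 0.0661, and without Atf4AKO cold replicate 2 it was 0.92 with 0.068. Without the 3 libraries that held skeletal muscle reads, the Atf4WT log2 fold change was 0.87 with an adjusted p of 0.0711.

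Pck1, the enzyme of glyceroneogenesis, was at 91973, 77290.0 and 131228 normalized counts in Atf4WT at RT and at 90393, 73814 and 56694 after cold. Atf4AKO libraries were at 91745, 123745 and 125023 at RT and at 131261, 59964 and 116621 after cold. The groups overlapped in both genotypes, and the 3 Atf4AKO libraries after cold spread from the second lowest to the highest value of all 12. The log2 fold change was −0.43 ± 0.31 (SE) in Atf4WT and −0.21 ± 0.31 in Atf4AKO, with adjusted p of 0.315 and 0.653 and 95% intervals of −1.13 to 0.26 and −0.90 to 0.48. Without Atf4AKO cold replicate 1, the lowest of its group and a library with muscle reads, the Atf4AKO value was 0.139.

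**Figure D2:**
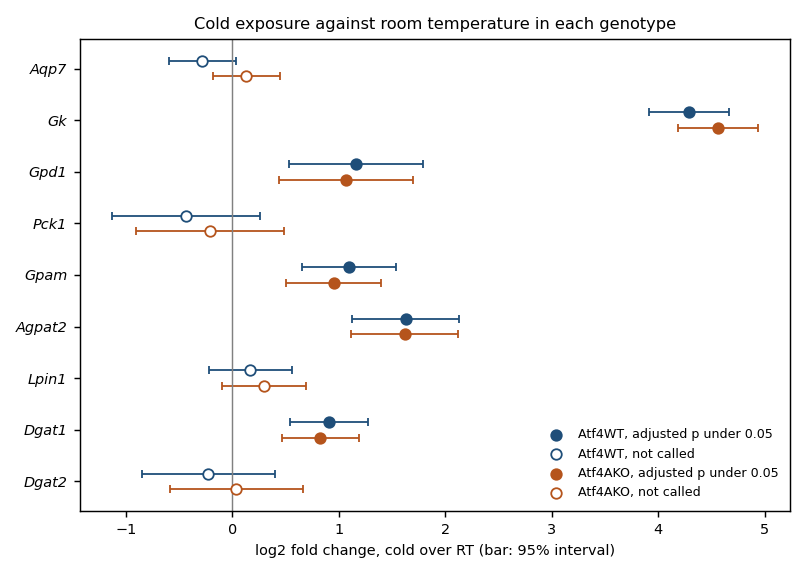
Log2 fold change of cold over RT (horizontal axis) with its 95% interval for the 9 genes, ordered from glycerol supply to the last acyl transfer, in Atf4WT (blue) and Atf4AKO (orange); filled points passed an adjusted p of 0.05. Gk stands apart at 4.29 and 4.56, Gpd1, Gpam, Agpat2 and Dgat1 lie between 0.83 and 1.63, and the intervals of the other 4 include 0.

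Gpam, the enzyme that adds the first acyl chain at the mitochondrial outer membrane, was at 8164, 8576 and 5846 normalized counts in Atf4WT at RT and at 16315, 15151 and 16063 after cold. The Atf4AKO libraries held 10161, 9309 and 6497 at RT and at 13412, 20639 and 16044 after cold. The temperatures did not overlap, and the 3 Atf4WT libraries after cold were close together (coefficient of variation 3.87%) where those of Atf4AKO were not (21.9%). Gpam rose 2.13-fold in Atf4WT (log2 1.09 ± 0.20, SE, adjusted p = 0.00257) and 1.93-fold in Atf4AKO (log2 0.95 ± 0.20, adjusted p = 0.00619).

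Agpat2, which adds the second acyl chain in the endoplasmic reticulum, was at 30465, 31204 and 19987 normalized counts in Atf4WT at RT and at 90551, 75082 and 82854 after cold. In Atf4AKO it was at 29530.0, 41866 and 22368 at RT and at 88272, 91156 and 99488 after cold. The lowest cold library was well above the highest RT library, and replicate 2 was again the lowest at RT in both genotypes. Agpat2 rose 3.09-fold in Atf4WT (log2 1.63 ± 0.23, SE, adjusted p = 0.000633) and 3.07-fold in Atf4AKO (log2 1.62 ± 0.23, adjusted p = 0.000745). With the lymphocyte score (defined below) as a covariate, the Atf4WT log2 fold change of Agpat2 was 2.27 and that of Gpd1 1.84. Both were more than 1.5 times the folds given, and both stayed called. In Atf4WT the score was 4.03 to 7.20 at RT and 7.22 to 9.56 after cold. Without overlap, this fit cannot separate the score from cold.

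Lpin1, the phosphatidate phosphatase, was at 9898, 14073 and 12662 normalized counts in Atf4WT at RT and at 11927, 13968 and 15052 after cold. The corresponding Atf4AKO values were 11539.5, 15685 and 13768 at RT and at 13360.0, 17326 and 19972 after cold. The groups overlapped throughout, with the 2 highest values in Atf4AKO after cold. The log2 fold change was 0.17 ± 0.18 (SE) in Atf4WT and 0.30 ± 0.18 in Atf4AKO, with adjusted p of 0.497 and 0.242.

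Of the 2 enzymes of the last step, Dgat1 was called after cold in both genotypes and Dgat2 in neither. Dgat1 was at 11474, 11427 and 10671 normalized counts in Atf4WT at RT and at 24913, 23214 and 15926 after cold, and in Atf4AKO at 10614, 14932 and 13793 at RT and at 23995, 23027 and 22086 after cold. Every cold library was above every RT library, the closest being Atf4WT cold replicate 2. Dgat1 rose 1.87-fold in Atf4WT (log2 0.91 ± 0.17, SE, adjusted p = 0.00251) and 1.77-fold in Atf4AKO (log2 0.83 ± 0.17, adjusted p = 0.00477). Dgat2 was at 78685, 70112 and 45812 normalized counts in Atf4WT at RT and at 56856, 47247 and 59071 after cold, and in Atf4AKO at 87462, 92506 and 45789.8 at RT and at 61282, 75256 and 87230.1 after cold. The groups overlapped in both genotypes, and replicate 2 was the lowest RT library in each. The log2 fold change of Dgat2 was −0.22 ± 0.28 (SE) in Atf4WT and 0.04 ± 0.28 in Atf4AKO, with adjusted p of 0.576 and 0.93 and 95% intervals of −0.85 to 0.40 and −0.58 to 0.66. The difference between the 2 genes within a library was not itself tested.

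Levels could be compared between genes only per length, as normalized counts per kb of the listed transcript, which was found for 8 of the 9 genes and not for Lpin1. At RT in Atf4WT, Pck1 had the highest level per kb (37640.0 ± 10500, SD, n = 3), followed by Dgat2 (28680 ± 7540), Gpd1 (21370 ± 6700) and Agpat2 (18280 ± 4210), whose ranges of 1 SD overlap from each to the next. Dgat1 (5927 ± 239), Aqp7 (2449 ± 186) and Gpam (1220 ± 238) were lower and separate from each other, and Gk was the lowest at 75.2 ± 12.2. After cold in Atf4WT, Agpat2 (55630 ± 5190) and Gpd1 (46120 ± 2060) were the highest per kb, above Pck1 (27670 ± 6330) and Dgat2 (24050 ± 2780). Gk was still the lowest of the 8 at 1475 ± 241 per kb, next to Aqp7 at 2038 ± 412, with overlapping ranges of 1 SD. In Atf4AKO after cold the means held the same order from Agpat2 (62440 ± 3910) through Gpd1 (51680 ± 9130) and Pck1 (38560 ± 14200) to Gk (1936 ± 356). The ranges of 1 SD of Agpat2 and Gpd1 overlapped there, as did those of Gpd1 and Pck1.

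Across the 12 libraries, the genes whose profiles were most like a gene of the list were found by the root mean square difference of centred log2 values over 11841 genes, for the 5 genes whose group means spanned at least 1 on the log2 scale. This is a description over libraries that share the cold contrast. For Gk, with a span of 4.68, they were Phospho1 (0.307), Slc27a2 (0.375) and Mfsd2a (0.445). For Gpd1 they were Thrsp (0.124), Aldh3b2 (0.142) and Pdhb (0.146), and for Gpam Sod2 (0.092), Bysl (0.096) and Pdhx (0.103). For Agpat2 they were Cyp2u1 (0.14), Hoxa4 (0.153) and 4931406C07Rik (0.161), and for Dgat1 Chchd4 (0.114), Adig (0.121) and Arxes2 (0.134). Among the 9 genes, the closest pair was Gpd1 and Gpam (0.229), then Gpd1 and Agpat2 (0.286), and the pair farthest apart was Gk and Pck1 (2.42). The profiles also show how the RT libraries spread: replicate 2 of each genotype was the lowest RT library of its genotype for Gk, Gpd1, Gpam and Agpat2. In Atf4WT that library also held muscle and B cell transcripts (Cd79a at 772 normalized counts against 23 and 13 in the other 2), and in Atf4AKO it did not stand out for these (Acta1 256 and Cd79a 48 normalized counts). T cell markers were the highest of the RT libraries in replicate 2 of both genotypes, with a mean log2 value of 6.08 against 4.97 and 4.58 in Atf4WT and of 6.28 against 5.10 and 4.95 in Atf4AKO. The part of these cells in the low values was not tested.

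**Figure D3:**
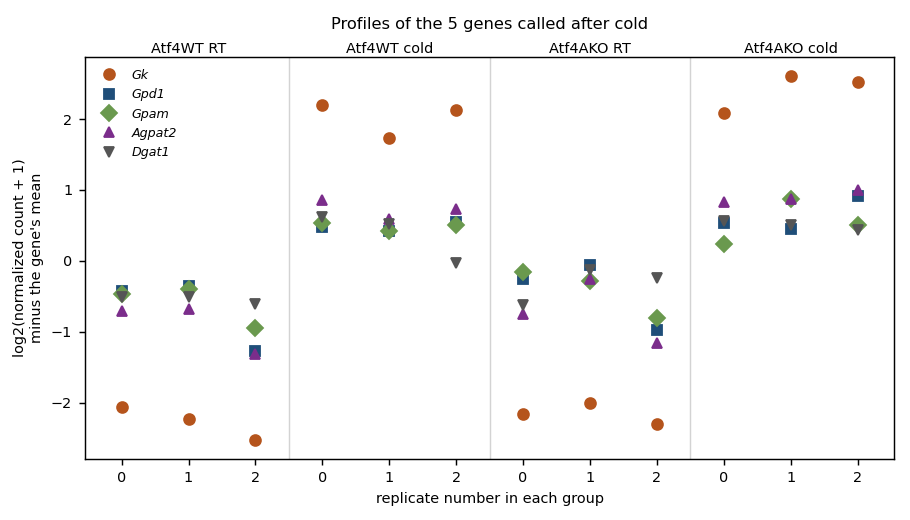
Log2(normalized count + 1) minus the mean of the gene over the 12 libraries (vertical axis) for the 5 genes called after cold, by replicate number within each group (horizontal axis); the replicates have no order. Gk spans 4.68 between group means, the other 4 lie within 1.04 to 1.80, and RT replicate 2 is the lowest RT library of each genotype for all of them but Dgat1.

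The other genes of the pathway were taken from a hand-made list by role, of which 34 of 36 were listed and tested. In Atf4WT, 11 of the 34 rose after cold and 3 fell, against backgrounds of 17% and 14.9%, with a median log2 fold change of 0.10. In Atf4AKO, 11 rose and 3 fell, against 14.8% and 11%, with a median of 0.21. Among the 7 listed genes around glycerol and glycerol 3-phosphate, 2 were called higher in each genotype, beside 17% and 14.8% of all genes. The number called lower was 0 in Atf4WT and 2 in Atf4AKO, beside 14.9% and 11%. Gpd2, the mitochondrial glycerol 3-phosphate dehydrogenase that hands its electrons to the respiratory chain, rose 2.11-fold in Atf4WT (log2 1.08 ± 0.21, SE, adjusted p = 0.00304) and 2.39-fold in Atf4AKO (log2 1.26 ± 0.21, adjusted p = 0.00165). Pgp, a phosphatase that can release glycerol from glycerol 3-phosphate, rose 1.76-fold and 1.64-fold, with adjusted p of 0.00291 and 0.00707. Gpd1l, the relative of Gpd1, was at −0.35 in Atf4WT (adjusted p = 0.0573) and fell by 0.41 on the log2 scale in Atf4AKO (adjusted p = 0.0366). Pck2, the mitochondrial counterpart of Pck1 and a known ATF4 target, was at −0.22 in Atf4WT (adjusted p = 0.159) and fell by 0.44 in Atf4AKO (adjusted p = 0.0155).

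Of the 2 other microsomal glycerol 3-phosphate acyltransferases, Gpat3 rose in Atf4WT with a log2 fold change of 0.82 (adjusted p = 0.0104), and in Atf4AKO its value was 0.51 (adjusted p = 0.0845). Of the 5 other lysophosphatidate acyltransferases, 3 rose in Atf4WT and 4 in Atf4AKO, none fell, beside 17% and 14.8% of all genes called higher, and their changes were smaller than that of Agpat2. Agpat1 had log2 fold changes of 0.64 and 0.74, Agpat3 of 0.60 and 0.69, and Lclat1, which acts on cardiolipin, of 0.40 and 0.64, all with adjusted p under the threshold in both genotypes. Agpat5 rose in Atf4AKO (0.37, adjusted p = 0.0387), and its value in Atf4WT was 0.28 (adjusted p = 0.0939). Among the 5 phosphatidate phosphatases beside Lpin1, Lpin2 rose in both genotypes (0.38 and 0.29, adjusted p = 0.0129 and 0.046). Plpp2 fell in Atf4WT (−0.48, adjusted p = 0.0297) and was at −0.03 in Atf4AKO (adjusted p = 0.892).

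Of the 3 genes around the last step, Bscl2, which encodes the lipid droplet protein seipin, rose in Atf4WT (0.41, adjusted p = 0.032) and was at 0.36 in Atf4AKO (adjusted p = 0.0646). Mogat2, a monoacylglycerol acyltransferase at low level, fell in Atf4WT from 81, 93 and 69.5 normalized counts to 35, 31 and 37 (log2 −1.22, adjusted p = 0.0442), and its value in Atf4AKO was −1.06 (adjusted p = 0.083). On the side of glycerol release, 1 of 5 genes rose in each genotype, near the share of all genes called higher (17% in Atf4WT and 14.8% in Atf4AKO). It was Abhd5, the co-activator of adipose triglyceride lipase, with log2 fold changes of 0.66 and 0.56 (adjusted p = 0.00452 and 0.0122). None of these differences between genotypes passed a test of its own, as given below.

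**Figure D4:**
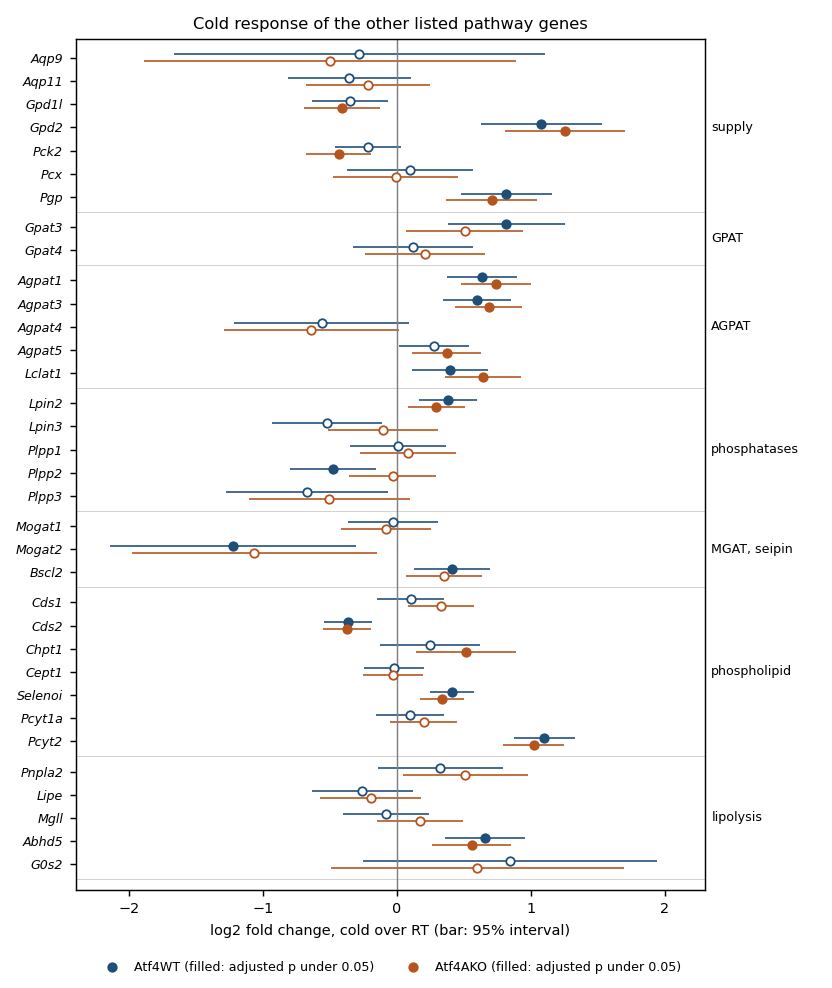
Log2 fold change of cold over RT (horizontal axis) with its 95% interval for the 34 other pathway genes, grouped by role, in Atf4WT (blue) and Atf4AKO (orange); filled points passed an adjusted p of 0.05. In each genotype 11 points are filled to the right of 0 and 3 to the left, with Gpd2 and Pcyt2 farthest to the right.

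The second comparison asks whether the 9 genes differed between the genotypes. After cold, none of the 9 was called by limma, where 4 of 13404 genes (0.0298%) were. None passed the rule of a fold change over 1.5 with an unadjusted p under 0.05 either, beside 6.4% of all genes. All 9 had a positive log2 difference, Atf4AKO over Atf4WT, with a median of 0.29 and a range of 0.05 to 0.45, where 7955 of 13404 genes were positive with a median of 0.046. Only Gk had an unadjusted p under 0.05 (0.044, adjusted p = 0.401), with a log2 difference of 0.39 ± 0.17 (SE) and a 95% interval of 0.01 to 0.77. Dgat2 had the highest value (0.45 ± 0.28, interval −0.18 to 1.07, adjusted p = 0.593). Its Atf4AKO libraries after cold were at 61282 to 87230.1 normalized counts and those of Atf4WT at 47247 to 59071. The share of all genes whose groups separate in this way was not counted, so no weight is put on it. Pck1 followed at 0.43 ± 0.31 (interval −0.27 to 1.12), Aqp7 at 0.30 ± 0.14 (−0.02 to 0.61) and Lpin1 at 0.29 ± 0.18 (−0.10 to 0.69). Gpd1, Gpam, Agpat2 and Dgat1 lay between 0.05 and 0.17, with intervals within −0.48 to 0.78. On the recovered reads, edgeR called 3 genes and DESeq2 591 in this contrast, and none of the 9 was among them. Their smallest adjusted p for the 9 genes was 0.327 and 0.304, both for Gk.

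Other transcripts differed between the same libraries. The lymphocyte score, a mean over 9 B cell genes and 10 T cell genes on the log2 scale, was 7.22 to 9.56 in Atf4WT after cold and 3.78 to 5.11 in Atf4AKO after cold, without overlap, and 4.03 to 7.20 and 4.21 to 5.35 at RT. The deposited table lists no gene at 0 in any library, so no listed marker could be at 0. The 5 white adipocyte markers were all positive in the same contrast, with a median of 0.23, near that of the 9 genes. With the libraries scaled to these markers, 5 of the 9 genes were positive and 4 negative, with a median of 0.10. With the lymphocyte score as a covariate, 3 were positive and 6 negative, with a median of −0.27. The score did not overlap between the genotypes after cold, so this fit cannot separate it from genotype. The sign therefore changed under that scaling or that covariate for 6 of the 9 genes, and was positive under all 25 alternatives for Aqp7, Pck1 and Lpin1.

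At RT, none of the 9 was called, where 1 of 13404 genes (0.00746%) was, and none passed the fold rule, beside 0.463%. The log2 differences ran from −0.12 (Aqp7) to 0.25 (Gpd1), with a median of 0.18, 8 positive and 1 negative, and no unadjusted p under 0.05. Without the 3 libraries with muscle reads, of which Atf4WT RT replicate 2 is the only one at RT, 4 were positive and 5 negative, with a median of −0.014.

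**Figure D5:**
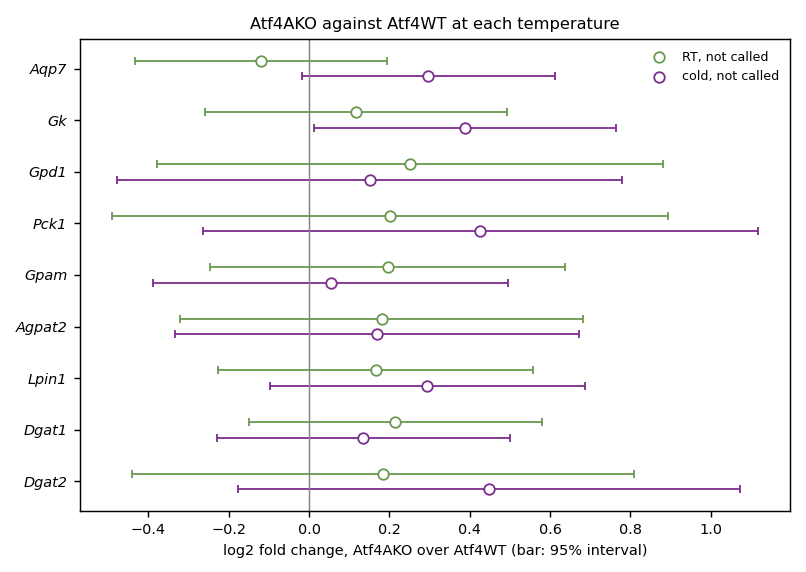
Log2 fold change of Atf4AKO over Atf4WT (horizontal axis) with its 95% interval for the 9 genes at RT (green) and after cold (purple); open points did not pass an adjusted p of 0.05. All 9 values after cold and 8 of 9 at RT are above 0, and 1 interval of 18, that of Gk after cold, leaves out 0.

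The third comparison asks whether the cold response itself differed between genotypes, by the interaction of genotype and temperature. No gene of the 13404 was called (0%) by limma, where 928 had an unadjusted p under 0.05, and 4.63% of genes passed the fold rule. edgeR called 0 genes and DESeq2 128. Of the 9 genes, none was called by any of the 3 tools, none passed the fold rule and none had an unadjusted p under 0.05. The log2 differences of the responses, Atf4AKO minus Atf4WT, ran from −0.14 (Gpam) to 0.42 (Aqp7), 5 positive and 4 negative with a median of 0.13. With the libraries scaled to the white adipocyte markers, 1 was positive and 8 negative, with a median of −0.15. With the lymphocyte score as a covariate, 3 were positive and 6 negative, with a median of −0.46 and the lowest values at −0.90 (Gpd1), −0.77 (Agpat2) and −0.73 (Gpam). In Atf4WT the score did not overlap between RT and cold, so this fit cannot separate it from cold. None of the 9 was called under that scaling or that covariate. Aqp7 had the smallest p (0.0641, adjusted p = 0.758), with an interval of −0.03 to 0.86. For Gk the difference was 0.27 ± 0.24 (SE) with an interval of −0.26 to 0.80, and for Agpat2 −0.01 ± 0.32 with an interval of −0.72 to 0.70. The widest intervals were those of Pck1 (−0.75 to 1.20) and Gpd1 (−0.99 to 0.79). Differences of any size within them are compatible with the data, as is none. None of the 34 other pathway genes was called between genotypes at either temperature or in the interaction. After cold, 3 of the 34 had an unadjusted p under 0.05, where 1571 of the 13404 genes did. Plpp2 had the smallest (0.011, log2 0.45, adjusted p = 0.212), at 329 to 431 normalized counts in Atf4AKO and 241 to 279 in Atf4WT. Pck2 followed (0.0211, log2 −0.30, adjusted p = 0.291), at 444 to 519.8 normalized counts in Atf4AKO and 551 to 643 in Atf4WT. The groups of Mogat1 and Bscl2 did not overlap either, and the share of all genes without overlap was not counted. Chpt1, an enzyme of phosphatidylcholine synthesis, was at log2 0.38 (unadjusted p = 0.048, adjusted p = 0.419).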

How the data were processed

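RNA from whole iWAT was sequenced as strand-specific polyA libraries. Per the labels and methods, the authors filtered reads with SOAPnuke, aligned them to mm10 with STAR, counted unique reads per gene with featureCounts and normalized the counts with DESeq2. The deposited signal is 1 table of these normalized counts per gene, with 1 column per library, and no column was left unused. All values (100.0%, within 0.01 reads) were whole multiples of the worth of 1 read in their library, so reads were recovered for count tests as an alternative. The smallest value of a library was taken as 1 read, and every gene in the table had at least 1 read in every library. The depth was 25719476 to 29105147 reads.

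The 13404 genes averaging 10 or more normalized counts (755 averaged less) were tested with limma 3.58.1 (R 4.3.3) on log2(normalized count + 1), which understates the change of low genes, in one fit of the 4 group means with an intensity trend, and p was adjusted by the Benjamini-Hochberg method over all tested genes. edgeR 4.0.16 and DESeq2 1.42.0 on the recovered reads were alternatives, and the fits were tested on simulated data. The methods speak of independent biological replicates; nothing else ties a library to an animal, so p-values measure the spread between these libraries.

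The 9 genes, the pathway list, the marker lists and the tests were chosen with earlier results of these data known. Named were all 9 genes, the pathway genes called in at least 1 contrast, marker genes that sit beside a result and, for genes spanning at least 1 on the log2 scale, the 3 genes with the most similar profile and a mean of at least 50. Egfl7 and Gm20532 are named for their position. Replicate numbers were not taken to pair the libraries, since not every same-numbered pair deviated together. Positions come from GENCODE, promoters from RefSeq.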

Additional observations from a re-analysis of the deposited data

How the results depend on the processing

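Each result was recomputed under 25 alternatives, of which 1, leaving out the 3 libraries with skeletal muscle reads, was chosen after seeing the data. Of 1125 recomputed log2 fold changes of the 9 genes, 1062 kept their direction and their side of the threshold. The number of the 9 genes called after cold was 5 in Atf4WT (4 without the muscle libraries, 5 to 5 when a library was left out) and 5 in Atf4AKO (4 to 5 when a library was left out, 6 with the replicate block), and 0 in every contrast between genotypes under each alternative (0 to 0 when a library was left out). The other pathway genes called were 14 in each genotype. In Atf4WT they were 9 by the fold rule, 8 without the muscle libraries and 11 to 16 when a library was left out. In Atf4AKO they were 7 by the fold rule, 7 with white adipocyte marker scaling, 9 when only the groups compared were fitted and 10 to 16 when a library was left out.

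Nothing in the labels ties same-numbered libraries together. Correlations of deviations ran from −0.189 to 0.389 over the 18 same-numbered pairs (median 0.0965, 8 over 0.1) and had a median of −0.043 over the 36 other pairs (9 over 0.1). The 6 pairs of replicate 1 were all over 0.1 (0.179 to 0.389), while 2 of the 6 of replicate 2 and none of replicate 0 were, and not every library correlated best with its own number: Atf4WT RT replicate 0 was at 0.269 with Atf4AKO RT replicate 1 and at −0.049 with replicate 0. The numbers were therefore not used as a pairing in the tests reported. The replicate block moved no direction of the 9 genes, and it added Lpin1 after cold in Atf4AKO (0.297, adjusted p = 0.04).

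The directions that reversed were all of values that had not passed the test. White adipocyte marker scaling moved the median of all genes after cold in Atf4WT from 0.003 to 0.3, between genotypes after cold from 0.046 to −0.15 and for the interaction from 0.035 to −0.238. It gave Aqp7 0.015 and Dgat2 0.074 after cold in Atf4WT, Gpd1 −0.045, Gpam −0.142, Agpat2 −0.027 and Dgat1 −0.061 between genotypes after cold, and, for the interaction, Gk 0, Pck1 −0.048, Lpin1 −0.145 and Dgat2 −0.009. The lymphocyte covariate gave Dgat2 0.424 and −0.076 after cold in Atf4WT and Atf4AKO, Gk −0.233, Gpd1 −0.698, Gpam −0.579, Agpat2 −0.639, Dgat1 −0.273 and Dgat2 −0.367 between genotypes after cold, and Gk −0.311 and Dgat2 −0.5 for the interaction. That fit cannot separate the score from cold in Atf4WT or from genotype after cold. Without the muscle libraries, Pck1 was 0.139 after cold in Atf4AKO and Gpam −0.089 between genotypes after cold. At RT, Gk was then −0.014, Gpd1 −0.042, Agpat2 −0.028 and Dgat2 −0.048, and in the interaction Gpd1 was 0.286, Agpat2 0.277, Lpin1 −0.028 and Dgat1 0.079. Dgat2 after cold in Atf4AKO was −0.021 with 75th percentile scaling, −0.101 with array weights, −0.009 with edgeR and −0.013 with DESeq2. Array weights gave Gpd1 0.011 and Agpat2 0.069 in the interaction. The causes were not tested.

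When a library was left out, values that changed sign ran as follows. After cold in Atf4AKO, Pck1 ran from −0.426 to 0.139 and Dgat2 from −0.285 to 0.222. Between genotypes after cold, Gpam ran from −0.110 to 0.201 and Dgat1 from −0.063 to 0.260. At RT, Gk ran from −0.014 to 0.223, Gpd1 from −0.042 to 0.524, Agpat2 from −0.054 to 0.398 and Dgat2 from −0.048 to 0.509. In the interaction, Gpd1 ran from −0.374 to 0.193, Gpam from −0.336 to 0.031, Agpat2 from −0.229 to 0.223, Lpin1 from −0.003 to 0.287, Dgat1 from −0.277 to 0.045 and Dgat2 from −0.061 to 0.496.

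Another scaling also moved the split of calls over all genes. After cold, 2273 were higher and 2000 lower in Atf4WT, and 2763 and 323 with white adipocyte marker scaling. In Atf4AKO the split was 1988 and 1479, 828 and 264 with that scaling, and 1715 and 1974 with 75th percentile scaling. DESeq2 called 591 genes between genotypes after cold, where limma called 4 and edgeR 3. With 3 libraries a group, a gene that was not called is not shown to be unchanged. The intervals given hold the differences compatible with the data.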

Other observations

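The phospholipid branch draws on the same diacylglycerol and phosphatidate as triglyceride, and 7 of its genes were listed. After cold, 2 rose and 1 fell in Atf4WT, where 17% of all tested genes were called higher and 14.9% lower, and 3 rose and 1 fell in Atf4AKO, where 14.8% and 11% were. The 1 gene of 7 that fell in each was near that background. Pcyt2, the rate-limiting enzyme of the CDP-ethanolamine route to phosphatidylethanolamine, was at 2499.9, 2435 and 2237 normalized counts in Atf4WT at RT and at 5407, 4889 and 5105 after cold. Its cold libraries lay above its RT libraries in both genotypes, and it rose 2.15-fold in Atf4WT (adjusted p = 7.53e-05) and 2.03-fold in Atf4AKO (adjusted p = 0.000115). Selenoi, which uses the product of that route, rose 1.33-fold and 1.26-fold (adjusted p = 0.0024 and 0.00772). Cds2, which turns phosphatidate into CDP-diacylglycerol, fell, with log2 changes of −0.36 and −0.37 (adjusted p = 0.00667 and 0.00724). Chpt1, which makes phosphatidylcholine, rose in Atf4AKO (0.52, adjusted p = 0.0445), and its value in Atf4WT was 0.25 (adjusted p = 0.286).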
